A study of Drosophila melanogaster x Drosophila simulans with 3 samples.

Results

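The regions described here are exonic regions in which Drosophila melanogaster and Drosophila simulans differ at only a few bases. A region was included when its length was equal in both species, at least 200 and under 1500 bases, and when the deposited identity between the species was 99% or more but under 100%. Of 60040 exonic regions, 876 (1.46%) met this rule, which uses lengths and identity and no read count. RNA was measured in heads of virgin female F1 hybrids from mothers of the D. melanogaster strain Berlin and fathers of the D. simulans strain C167.4. The flies were aged 1 to 1.5 days at 25 °C and carried no transgene or treatment named in the labels. There was 1 group of 3 replicates, each a pool of 200 flies, and polyadenylated RNA of each was sequenced as 54 bp paired ends in a lane of its own. A lane effect cannot be told apart from a replicate, nor an allele's species from its parent of origin, in this single cross. The tables name no genes, so heads could not be checked against marker genes and the regions are described by length, identity and read number. In pooled heads, fewer cells of a type and less RNA per cell cannot be told apart.

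An F1 hybrid carries 1 genome of each species in the same nuclei, so both alleles of an exon meet the same transcription factors, and a difference between their transcripts is commonly read as an effect of linked sequence. Telling the alleles apart needs a sequenced base at which the species differ. Exons under strong purifying selection have few such bases, and most of their reads fit both genomes equally well. Expression of these exons can therefore be measured from all reads, while the allelic origin rests on the few reads that cross a differing base.

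The conserved regions were short, and most differed at 1 or 2 bases. Their lengths ran from 200 to 1484 bases with a median of 258, and the quartiles were 220 and 346.25. Multiplying length by the percent of differing positions gave, in all 876 regions, a whole number of differing bases that returned the deposited identity to 2 decimals. That number was 1 in 252 regions, 2 in 413, 3 in 110, 4 in 41 and 5 to 11 in the other 60. A minority of 85 (9.70%) carried an identifier starting with F, against 11.2% of all regions, and the meaning of the letter is not given in the sources used here. A position altered in the Berlin reference was listed in 255 conserved regions, and one altered in the C167.4 reference in 408. No position was altered in either reference in 360.

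The 3 libraries held 26406916 to 29004108 reads over all regions, of which the conserved regions took 2.46% to 2.77%. Exact matches made up 30.0% of the reads of conserved regions in replicate 2, well below the 60.6% of replicate 1 and the 55.2% of replicate 3. The same division was seen over all regions, at 31.0% against 63.7% and 57.3%.

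The first question was how strongly these exons were expressed. Expression level was taken as all reads of a region, in all 10 match classes, per kilobase and per 1000000 reads counted in the library. The median conserved region stood at a level of 11.4 in replicate 1, 11.8 in replicate 2 and 13.3 in replicate 3, or 12.2 ± 1.00 (SD, n = 3). Equal-length regions of the same size range with 98% to under 99% identity had median levels of 10.0, 10.3 and 11.6, and those under 98% identity had 4.67, 4.76 and 5.28. In every library the conserved regions thus had the highest median of these 3 classes, and the gap to the least conserved class exceeded the spread between libraries. These are descriptions, since regions are not replicates, and with 3 libraries a direction shared by all cannot be tested below a p of 0.25.

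The expression of the conserved regions was wide, and a larger share of them was abundant than in the classes beside them. Averaged over libraries, the quartiles of their level were 4.15 and 31.5, and the 90th percentile was 104. A level of 100 or more was reached by 92 of 876 (10.5%), against 6.88% of the 3024 regions with 98% to under 99% identity, 3.09% of the 21938 under 98%, and 3.78% of all regions. Level hardly varied with identity within the conserved regions, with a Spearman's rho of -0.06 across the 876. The median level was 12.2 in regions with 1 differing base, 11.5 with 2, 12.1 with 3, 12.2 with 4 and 18.0 with 5 to 11. Levels of 2 libraries correlated across the 876 regions with a Spearman's rho of 0.985 to 0.988, where all pairs share the regions' lengths.

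Regions with no read were few among the conserved regions and many among identical ones. No read in any library was found for 59 conserved regions (6.74%). The share was 5.56% at 98% to under 99% identity, 10.6% under 98%, and 54.4% of the 250 identical regions of the same size range, whose median level was 0 in every library. Of the 59 regions without a read, 52 had no altered position in either reference and 16 were at least 600 bases long. A lack of altered positions was as usual over the whole table, in 7418 of the 8031 regions without a read. Another 46 were read in some libraries only, and 771 were read in every library.

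**Figure D1:**
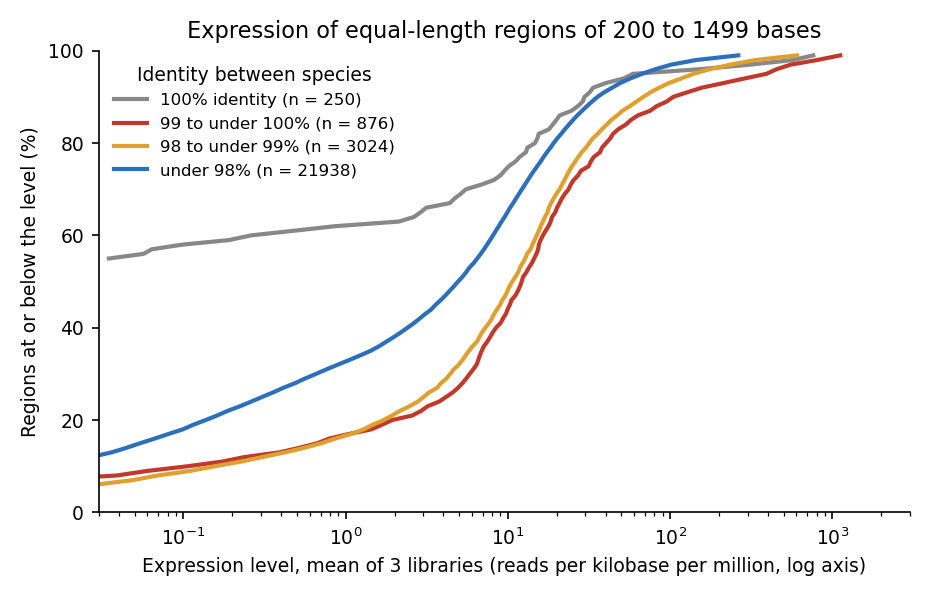
Cumulative distribution of expression level for equal-length regions of 200 to under 1500 bases in 4 classes of identity. The horizontal axis is the mean level of 3 libraries in reads per kilobase per 1000000 reads on a log axis, and the vertical axis is the percent of regions at or below it; levels of 0 lie left of the axis. The curve of the 876 conserved regions lies furthest to the right over the middle of the range, at a median of 12.2, and the curve of the 250 identical regions starts above 54.4%.

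The regions just inside and just outside the identity limit are given as a description. Those less than 0.1 percentage points above the limit (n = 219) had a median level of 13.4 and a median assigned share of reads, defined below, of 43.6%. Those less than 0.1 points below it (n = 121) had 10.7 and 43.9%. Their median lengths differed, at 216 and 370 bases.

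The 10 conserved regions with the highest level held 37.0% of all reads of the conserved regions. A region of 278 bases with 99.28% identity stood at levels of 4773, 5299 and 5497 in replicates 1, 2 and 3. S53230_SI, of 561 bases and 99.11% identity, stood at 4759, 5184 and 5549, and a region of 405 bases with 99.01% identity at 4359, 4498 and 5386. The libraries gave the same 3 regions the lead, each lowest in replicate 1 and highest in replicate 3. The other 7 ranged from 1116 to 2319 in mean level and had 1 to 3 differing bases. Among these 7, a region of 540 bases with 99.81% identity moved between libraries, at 1166, 1785 and 424, and is taken up again below.

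Which reads could be assigned to an allele was the next question. An allele-assigned read is one that matched the reference of 1 species only or matched it better. In the conserved regions 33.9%, 33.5% and 33.7% of reads were assigned in replicates 1, 2 and 3, or 33.7% ± 0.209 (SD, n = 3), against 69.3% ± 0.978 over all regions. The 3 libraries hardly differed from each other, replicate 2 included. Among the 686 conserved regions with a mean of at least 20 reads, the median assigned share was 32.7%, with quartiles of 22.3% and 43.5%. It was 58.0% in the regions with 98% to under 99% identity and 85.1% in those under 98%.

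A single differing base left most reads unassigned, and the median assigned share was almost the same in all classes from 2 differing bases upward. The median assigned share was 21.6% in the 201 regions with 1 differing base, 38.4% in 314 regions with 2, 37.8% in 91 regions with 3, 38.8% in 33 regions with 4 and 38.4% in 47 regions with 5 to 11. Lengths rose along with the number of bases, from a median of 232 bases with 1 to 718.5 with 5 to 11. The rule for including regions bears on this. Its identity limit sets the same highest density of differing bases along a region for every class from 2 upward. Its minimum length holds regions with 1 differing base below that density. The step from 1 to 2 and the near-equal medians beyond thus cannot be told apart from an effect of the rule. Set against the differing bases per 54 bases of region, the assigned share had a Spearman's rho of 0.59 across the 686 regions, which share their libraries. With 54-base reads that lie wholly inside a region, a differing base is crossed by at most 54 start positions. If reads start evenly along the region, this caps the assigned share at a median of 49.3%. The assigned share lay above this cap in 90 regions. Whether a count is a single read or a read pair is not stated in the files. Pairs, uneven starts and reads that overhang the ends of a region are not covered by the calculation.

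**Figure D2:**
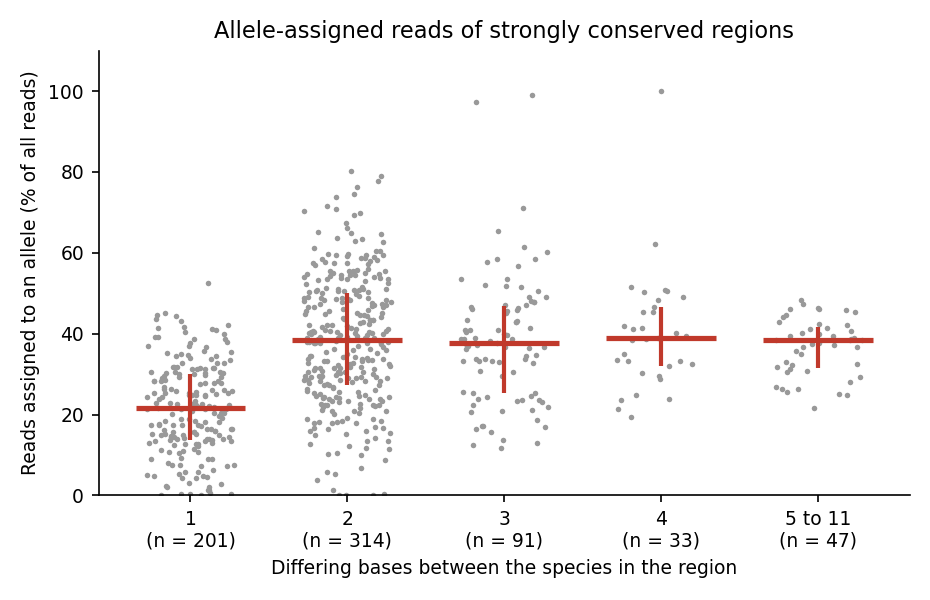
Percent of reads assigned to an allele in each of the 686 conserved regions with a mean of at least 20 reads, by the number of bases at which the species differ. Each grey point is a region, red bars are medians and vertical red lines span the quartiles; the median rises from 21.6% with 1 differing base to 38.4% with 2 and stays between 37.8% and 38.8% beyond.

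Some regions stood far from this pattern in either direction. Under 1% of reads were assigned in 10 of the 686 regions, 7 of which had an altered position in a reference and 4 of which had at least 2 differing bases. An altered position was common among the 686 as well, as only 228 of them had none. The most abundant region with 2 differing bases among them, of 216 bases and 99.07% identity, had 6079, 6732 and 7194 unassigned reads in the 3 libraries. Its D. melanogaster reads numbered 3, 3 and 1, and its D. simulans reads 1, 0 and 0. The region was thus strongly expressed, at a mean level of 1129, while its allelic origin could not be read. At the other end, 3 regions had at least 90% of their reads assigned. These regions were singled out after their values were seen.

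Allelic imbalance was then tested where the libraries averaged 20 or more allele-assigned reads, both alleles together, which held for 503 of 876 conserved regions (57.4%). A further 183 had at least 20 reads but too few assigned ones. Imbalance in read number was called in 100 of the 503 (19.9%) with edgeR's quasi-likelihood test at a Benjamini-Hochberg adjusted p under 0.05, where 35.6% of all 33303 tested regions were called. The call was toward D. melanogaster in 55 (10.9%; 23.4% of all tested regions) and toward D. simulans in 45 (8.95%; 12.2%). The conserved regions thus had a smaller called share in each direction, chiefly toward D. melanogaster. Scaling between the alleles with TMM, which centres the median region, gave 39 and 66 calls in place of 55 and 45 (18.2% and 16.5% of all tested regions), and median-ratio scaling gave the same numbers (18.1% and 16.6%), so which side had more calls depends on the scaling. DESeq2's Wald test called 43 of the 503 (17.8% of all tested regions), each also an edgeR call with the same sign, and edgeR without the replicate block called 54 (24.1%). Without replicate 2, the library with few exact matches, 69 of 508 tested were called (27.9% of all regions so tested), 35 toward D. melanogaster.

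The smaller called share was also seen among regions of like depth, up to 300 reads. With a mean of 20 to 50 assigned reads, 17 of 216 conserved regions (7.87%) were called, against 20.7% of all tested regions at that depth. With 50 to 100 reads it was 16 of 97 (16.5%) against 26.4%, and with 100 to 300 reads 22 of 108 (20.4%) against 36.8%. At higher depth the shares came near each other, with 19 of 41 (46.3%) against 50.4% at 300 to 1000 reads and 26 of 41 (63.4%) against 66.4% at 1000 or more. The regions with 98% to under 99% identity gave 10.9%, 16.1%, 24.0%, 44.9% and 60.1% in the same 5 classes of depth, close to the conserved regions. No test of these differences between classes of regions was made.

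Ratios were small in most conserved regions. The median log2 ratio of D. melanogaster to D. simulans reads was 0.03 over the 503, against 0.09 over all tested regions, and it was 0.0047, 0.040 and 0.045 in the 3 libraries. The median absolute log2 ratio was 0.23 against 0.30, and among called regions 0.60 against 0.66. In the regions with 98% to under 99% identity these medians were 0.25 and 0.61. The median SE of a ratio was 0.26 in the conserved regions, larger than their median absolute ratio, and 0.19 over all tested regions. Among the calls, 26 regions (5.17%; 9.80% of all tested regions) reached 2-fold, 16 with more D. melanogaster and 10 with more D. simulans reads, where 6.91% and 2.89% of all tested regions were such. The share called at 2-fold or more was lower still, at 4.34%, in the tested regions with 98% to under 99% identity. All 3 libraries had the same direction in 97 of the 100 called regions and in 129 of the 403 not called (32.0%). The calls were made on these same libraries, so the first count is no separate check of them. Log2 ratios of 2 libraries correlated across the 503 with a Pearson's r of 0.763 to 0.791 and a Spearman's rho of 0.369 to 0.411.

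**Figure D3:**
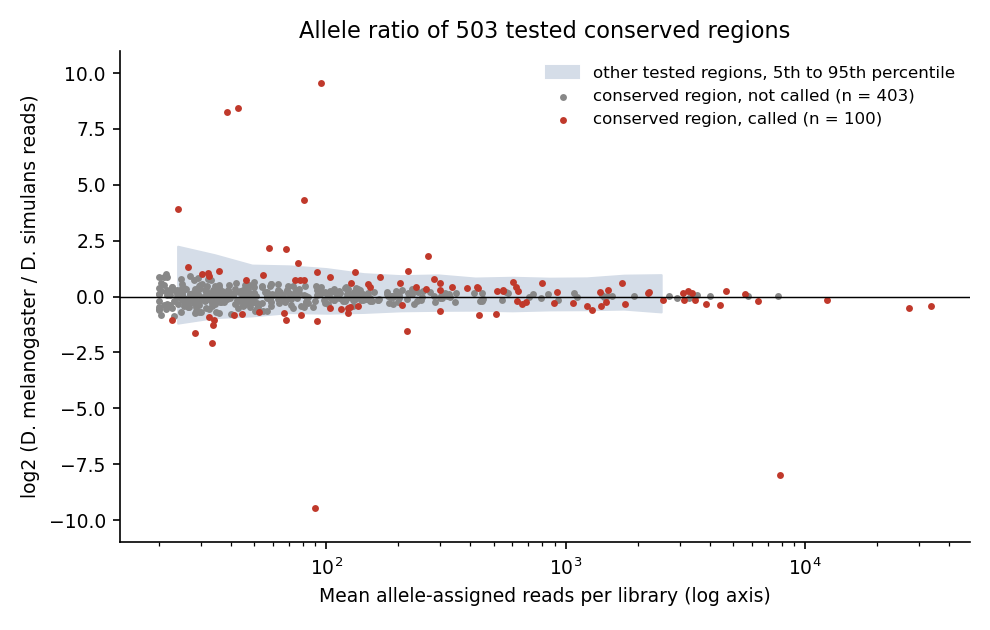
Fitted log2 ratio of D. melanogaster to D. simulans reads against the mean number of allele-assigned reads per library on a log axis. Points are the 503 tested conserved regions, red where imbalance was called (n = 100) and grey where not (n = 403); the shaded band spans the 5th to 95th percentile of the other tested regions. Most points lie inside the band, and the most extreme points include 4 regions with no read of one allele, whose plotted ratios depend on the model's prior count.

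Toward D. melanogaster, the 10 largest log2 ratios ran from 0.89 to 2.17 once regions with under 4 reads of an allele in a library, or under 100 in all, were set aside. S35278_SI, of 207 bases and 99.03% identity, was read 36, 49 and 57 times from D. melanogaster in replicates 1, 2 and 3, and 10, 11 and 10 times from D. simulans. D. melanogaster made up 81.7% ± 3.41 (SD, n = 3) of these reads, and the fitted log2 ratio was 2.17 ± 0.30 (SE; edgeR adjusted p 1.66e-11). The alleles did not overlap in any library. A region of 243 bases with 99.59% identity had 58, 44 and 64 reads against 10, 9 and 19, a log2 ratio of 2.13 ± 0.28. A region of 281 bases with 99.64% identity had 183, 219 and 221 reads against 55, 55 and 68, a log2 ratio of 1.81 ± 0.14. Both of these had a single differing base, and only 10.8% of the reads of the 281-base region were assigned, so that its ratio speaks for a small part of 2073 to 2298 unassigned reads. The remaining 7 of the 10 had 2 or 3 differing bases and D. melanogaster shares of 65.0% to 74.1%. When limited to reads that both genomes could place, the regions of 312 and 285 bases lost their calls, at log2 ratios of -0.33 and 0.22 in place of 1.14 and 1.09 (edgeR adjusted p 0.177 and 0.584). Of these 7, a region of 216 bases lost its call without replicate 2 or replicate 3, and one of 227 bases without replicate 2 (edgeR adjusted p 0.0787, 0.0733 and 0.0911). Set aside for few D. simulans reads were a region of 211 bases with 99.05% identity, with 92, 59 and 80 D. melanogaster reads against 1, 4 and 6, and one of 301 bases, with 13, 44 and 11 against 0, 1 and 3.

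Toward D. simulans, S32496_SI had the most extreme ratio within the same read limits, at -8.00 ± 0.08 (SE). Its single-library log2 ratios spread more widely than this SE, which rests largely on all regions together, and averaged -8.21 ± 0.70 (SD, n = 3). This region of 740 bases had 44, 42 and 6 D. melanogaster reads against 8327, 12079 and 3203 D. simulans reads, and 99.1% of its reads were assigned. It has 3 differing bases at 99.59% identity, with 9 positions altered in the Berlin and 5 in the C167.4 reference. Nearly all its assigned reads were placed on 1 genome only, 72 from D. melanogaster and 23606 from D. simulans over the 3 libraries. Those placed on both genomes numbered 14, 6 and 0 from D. melanogaster against 2, 1 and 0, too few for a test. Next came a region of 215 bases with 99.53% identity, with 7, 5 and 7 D. melanogaster reads against 27, 25 and 29 D. simulans reads. Its log2 ratio was -2.07 ± 0.39 (SE). A region of 344 bases with 99.42% identity had 56, 54 and 58 reads against 128, 162 and 196, a log2 ratio of -1.52 ± 0.15. The other 7 of the 10 ranged from -0.82 to -1.25, and 4 of these 7 (270, 304, 228 and 250 bases) lost their call when some single library was left out, at edgeR adjusted p of 0.0707 to 0.190. Apart from S32496_SI, the D. simulans side thus held no ratio larger than that of the 215-base region among regions that met these read limits. Among those set aside for few reads, a region of 752 bases with 99.73% identity was called at -1.62 ± 0.41 (SE). It had 7, 13 and 1 D. melanogaster reads against 31, 24 and 9 D. simulans reads.

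In 4 tested regions, no read of one allele was found in any library, and all of their assigned reads were placed on 1 genome only. They were singled out after their values were seen. A region of 204 bases with 99.51% identity was read 98, 92 and 94 times from D. melanogaster. Set against 3 counts, the upper limit for a sum of 0 over 3 libraries, that is at least 94.7-fold higher. Its unassigned reads numbered 206, 188 and 226. A region of 258 bases with 99.22% identity had 41, 45 and 42 D. melanogaster reads, at least 42.7-fold higher on this measure. The 540-base region mentioned above had 52, 30 and 33 D. melanogaster reads, at least 38.3-fold higher, beside 16578, 25616 and 6602 unassigned reads, so that 0.235% of its reads were assigned. A region of 575 bases with 99.30% identity had only D. simulans reads, 32, 202 and 34 of them, at least 89.3-fold higher, and no unassigned read. Leaving out the library with the most such reads lowers the 4 limits to 62.0-fold, 27.7-fold, 21.0-fold and 22.0-fold in this order, and replicate 2 alone held most reads of the 575-base region. In the first 3 of these regions most reads fitted both species, and in the last none did.

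Called regions with the most assigned reads had small ratios, apart from S32496_SI. S53230_SI was read 12785, 14412 and 16421 times from D. melanogaster in replicates 1, 2 and 3, and 17119, 19958 and 20447 times from D. simulans. Its D. melanogaster share was 43.1%, with a log2 ratio of -0.40 ± 0.03 (SE). With reads of an exact match only, its log2 ratio was 0.029 and was not called. The 405-base region had 9880, 9683 and 14106 reads against 14821, 13878 and 19231, a log2 ratio of -0.52 ± 0.04, and the 278-base region had 5170, 5926 and 6424 reads against 5743, 6161 and 7620, a ratio of -0.15 ± 0.04. These 3 most expressed regions all leaned to D. simulans in every library, and the 278-base region lost its call without replicate 3 (-0.10, edgeR adjusted p 0.0984).

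On the D. melanogaster side, the 5 called regions with the most reads had ratios of 0.13 to 0.26. S57785_SI, of 306 bases and 99.02% identity, had 2536, 3219 and 3076 D. melanogaster reads against 2496, 2666 and 2904 D. simulans reads, a log2 ratio of 0.13 ± 0.05 (SE) with an edgeR adjusted p of 0.0183. Its call was lost with TMM scaling (0.03) and without replicate 2 (0.05, edgeR adjusted p 0.479). A region of 1149 bases with 11 differing bases, at 99.04% identity, had 2538, 2582 and 2505 reads against 2093, 2067 and 2220, a share of 54.5%. The 607-base and 1428-base regions among the 5 lost their calls with TMM scaling (0.07 and 0.05), the first without replicate 1 or 3 and the second without replicate 2 or 3. With reads that both genomes could place, these 2 regions were not called either, at 0.09 and 0.10 (edgeR adjusted p 0.209 and 0.142). Their reads placed on 1 genome only gave 0.60 and 0.66. Not called in spite of their depth were a region of 341 bases, one of 509 bases and one of 418 bases, with ratios of 0.02 to 0.04 and D. melanogaster shares of 50.4% to 50.6%. In the 341-base region the libraries even differed in direction, with 3746, 3833 and 4058 reads against 3392, 3996 and 4082.

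Summed over the conserved regions, D. simulans reads outnumbered D. melanogaster reads. The D. melanogaster share of assigned reads was 46.0%, 45.5% and 47.6% in the 3 libraries, or 46.4% ± 1.09 (SD, n = 3), whereas it was 53.9% ± 0.416 over all regions. This rested on abundant regions, as the 10 with the most assigned reads held 47.9% of them, and without these 10 the share was 50.4%, with 50.3%, 50.5% and 50.4% in the libraries. Beyond the most abundant regions, the alleles of conserved exons thus contributed almost equal read numbers in every library.

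The kind of read behind a ratio was compared next. Reads that both genomes could place, 1 of them better, rest on a direct comparison of alignments, while reads placed on 1 genome only also depend on whether the other genome can place them. Of the assigned reads of conserved regions, 90.2%, 89.0% and 92.7% were placed on both genomes in replicates 1, 2 and 3, against 60.7%, 66.1% and 62.6% over all regions. Reads placed on both genomes allowed a test in 487 conserved regions and called 76 (15.6%; 26.0% of all regions so tested), 39 with D. melanogaster and 37 with D. simulans in excess. Of the 100 calls made with all reads, 72 were also made with these reads alone in the same direction, 1 in the opposite direction, 19 were tested and not called, and 8 had too few such reads.

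Reads placed on 1 genome only were numerous enough for a test in 78 conserved regions and called 38 (48.7%; 38.4% of all regions so tested), 19 in each direction. Among the 15 conserved regions called with each kind, 9 had the same direction and 6 (40.0%) had opposite ones, where 309 of 3822 such regions over the whole table (8.08%) were opposite, a contrast that was not tested. The difference between the kinds was itself tested, as an interaction of allele and kind of read in edgeR, in 70 conserved regions. It was called in 25 (35.7%; 14.0% of all 20143 regions so tested), in 13 of them with the ratio from reads on 1 genome further toward D. melanogaster.

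The 8 largest differences all had the reads placed on 1 genome leaning to D. melanogaster, while the log2 ratios from reads on both genomes ran from -0.33 to 0.47 and 7 of the 8 were not called there. The exception, a region of 651 bases, was called toward D. simulans at -0.22 (edgeR adjusted p 0.0469). A region of 381 bases with 99.21% identity and 3 differing bases had 294, 345 and 354 D. melanogaster reads on 1 genome only against 5, 7 and 7 D. simulans reads. Its reads on both genomes numbered 653, 723 and 776 against 613, 648 and 757. The difference between the ratios was 5.59 ± 0.19 (SE, log2), with an edgeR adjusted p of 9.91e-27. With all reads the region was called at 0.63, while reads on both genomes alone gave 0.09 and no call (edgeR adjusted p of 0.273).

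S35278_SI, first by ratio toward D. melanogaster, behaved likewise. Its reads on 1 genome only were 21, 35 and 43 from D. melanogaster and none from D. simulans, at least 33.0-fold higher by the limit of 3 counts. On both genomes it had 15, 14 and 14 against 10, 11 and 10, a log2 ratio of 0.47 ± 0.37 (SE) with an edgeR adjusted p of 0.383. Its imbalance with all reads thus came mainly from reads that only 1 genome placed. In contrast, the 243-base and 281-base regions kept ratios of 2.03 and 1.80 with reads on both genomes, and the 215-base region leaned further to D. simulans there, at -3.67.

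**Figure D4:**
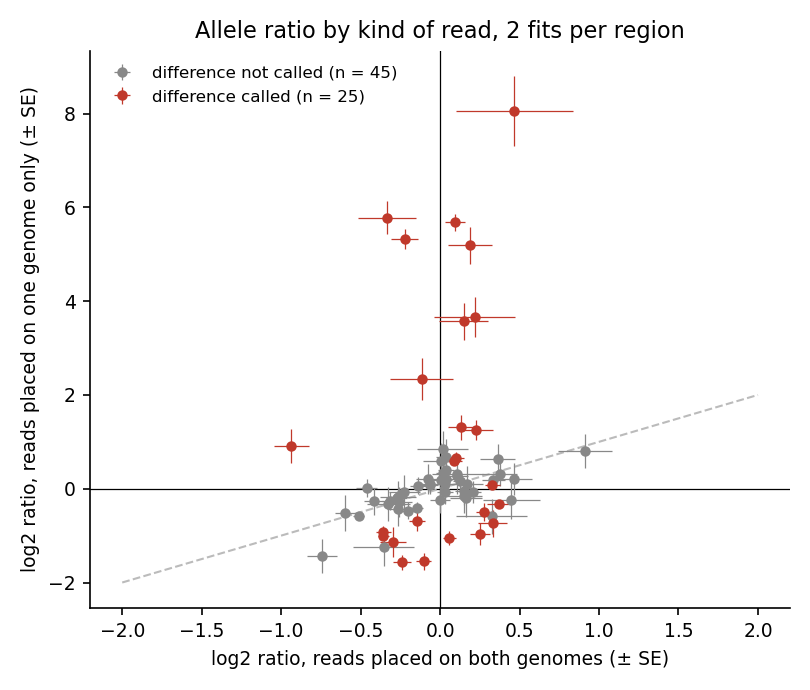
Log2 ratio of D. melanogaster to D. simulans reads from reads placed on both genomes (horizontal) and on 1 genome only (vertical) in the 70 conserved regions tested with each kind, with standard errors. Red points are the 25 regions where the difference between the kinds was called, the dashed line marks equal ratios; the regions with the largest vertical values lie close to 0 on the horizontal axis.

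Levels repeated well between libraries in most conserved regions. In the 686 regions with a mean of at least 20 reads, the highest library exceeded the lowest by a median of 1.28-fold, and by under 1.5-fold in 546. Replicate 3 was the highest library in 408 and replicate 1 the lowest in 316. A range of 2-fold or more was found in 28 regions and one of 3-fold or more in 5.

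All 5 regions with a range of 3-fold or more were highest in replicate 2 and lowest in replicate 3, and 4 of them had identifier numbers within 101 of each other, a feature noticed after the values were seen. The fifth, a region of 301 bases with a number outside that stretch, stood at levels of 1.76, 5.75 and 1.60. S32496_SI stood at levels of 432, 621 and 151 in replicates 1, 2 and 3. The 540-base region stood at 1166, 1785 and 424, the 575-base region at 2.11, 13.2 and 2.04, and the 752-base region at 7.15, 9.75 and 2.29. The fold between the highest and lowest library was 4.12, 4.21, 6.48 and 4.25 in this order, far beyond the usual range of the conserved regions. Within this stretch of numbers, 21 regions of any identity had a mean of at least 20 reads, with a median range of 2.46-fold against 1.27-fold over all regions. All 8 of them with a range of 3-fold or more were highest in replicate 2 and lowest in replicate 3. Both the 21 and the 8 include the 4 conserved regions that set the limits of the stretch, so they are not separate support. Whether the numbers follow genome order is not given in the sources used here.

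**Figure D5:**
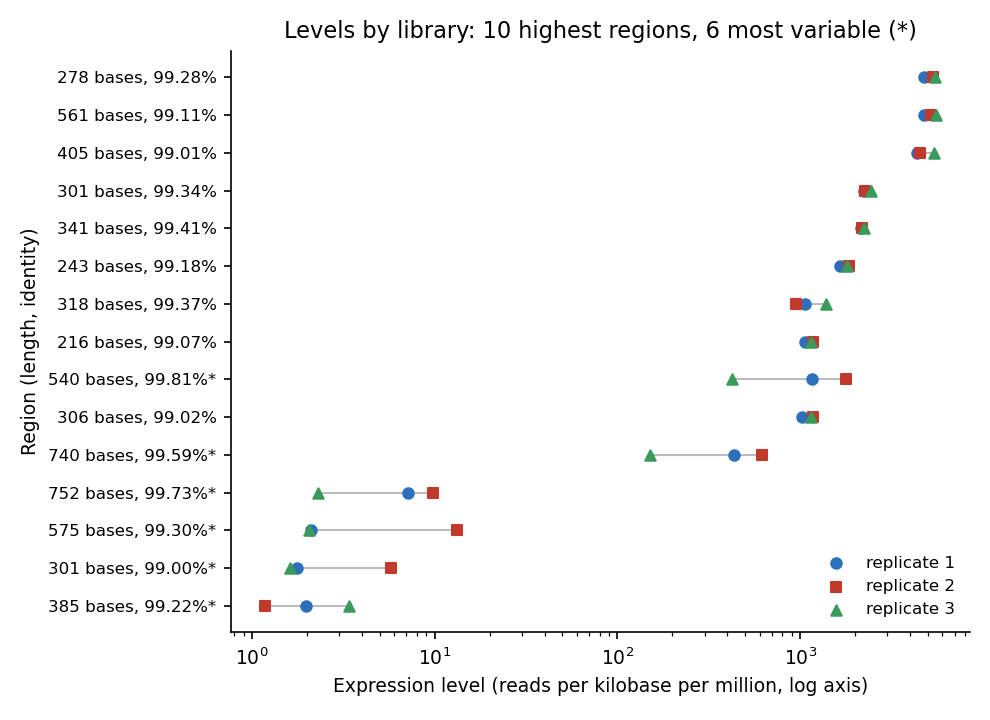
Expression level in each of the 3 libraries, in reads per kilobase per 1000000 reads on a log axis, for the 10 conserved regions with the highest mean level and the 6 with the widest range between libraries (asterisks), 1 region being in both sets. Points of 1 region are joined by a line; the levels of most abundant regions nearly coincide, while the 540-base and 740-base regions spread by 4.21-fold and 4.12-fold with replicate 2 highest and replicate 3 lowest.

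Conserved regions were crowded in that part of the numbering. Counted in bins of 100 identifier numbers, 33 fell between 32400 and 32499, while no other bin held more than 6. These 33 had a median length of 817 bases. No read was found in 17 of them, only 4 had a mean of at least 20 reads, and 24 had no altered position in either reference. With the neighbouring bins, from 32300 to 32599, the stretch held 41 conserved regions, 19 of the 59 without a read, and 25 of the 77 with at least 600 bases.

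Outside the stretch, regions without a read were fewer and the summed allele share lay nearer to balance. Only 5 tested regions lay in the stretch, so leaving it out could hardly change the called share. The other 835 regions had a median level of 12.9, and 4.79% of them had no read. Imbalance was called in 96 of 498 (19.3%; 35.6% of all tested regions). Of these, 54 had D. melanogaster and 42 D. simulans in excess (23.4% and 12.2% of all tested regions). A ratio of 2-fold or more was found in 22 of the 96 (9.80% of all tested regions). The summed D. melanogaster share was 48.0% ± 0.194 (SD, n = 3) in place of 46.4%. Of the 52 regions of at least 600 bases elsewhere, 2 had no read.

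Imbalance showed almost no trend along the range of identity among the conserved regions, with a Spearman's rho of -0.01 between identity and the absolute log2 ratio across the 503 tested. Calls numbered 16 of 104 (15.4%) with 1 differing base, 42 of 244 (17.2%) with 2, 20 of 76 (26.3%) with 3, 11 of 32 (34.4%) with 4 and 11 of 47 (23.4%) with 5 to 11. The median number of assigned reads rose over these classes too, from 40.3 to 60.7, 77.0, 90.3 and 179, so depth and number of differing bases cannot be told apart here. By length, 46 of 287 (16.0%) were called at 200 to under 300 bases, 39 of 170 (22.9%) at 300 to under 600 bases and 15 of 46 (32.6%) at 600 bases or more. Median assigned reads rose with length as well, from 50.3 to 76.3 and 187.5, so depth and length cannot be told apart either. Over all tested regions, of any length and number of differing bases, 35.6% were called.

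Altered positions in a reference were set beside the direction of the calls. In conserved regions with positions altered in the Berlin reference only, 12 of 73 (16.4%) were called toward D. melanogaster and 3 (4.11%) toward D. simulans, where all tested regions altered in Berlin only gave 23.0% and 9.99%. Where only the C167.4 reference was altered, the calls were 20 and 12 of 158 (12.7% and 7.59%), against 22.9% and 11.7% of all regions of that kind. Where both were altered they were 9 and 9 of 109 (8.26% each), against 24.7% and 13.1%. Where neither was altered they were 14 and 21 of 163 (8.59% and 12.9%), against 19.6% and 10.5%. The part of altered positions in the ratios was not tested.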

How the data were processed

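Messenger RNA from hybrid heads was sequenced in 3 libraries of 1 group. The authors deposited raw counts of reads per exonic region in 10 match classes, 2 unassigned and 4 per allele, per the file headers. Per the submitters' processing notes, Bowtie was used. Its version and mismatch limits, the genome build and the annotation were not given in the sources used here. The percent identity and the percent of altered positions are the authors' values, per the file headers, which do not say how a position was altered. The deposited coverage signal has no stated origin and was not used. The genomic DNA control named in the design was not analysed here, so no correction was made for unequal placing of the species' reads.

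Classes were summed per allele. The whole table was fitted wherever allele-assigned reads averaged 20 or more per library, using the quasi-likelihood F test of edgeR 4.0.16 in R 4.3.3 on 6 allele columns, with replicate as a block, 1 library size for both alleles and Benjamini-Hochberg adjustment over all 33303 regions. The block pairs the alleles, which share an RNA pool within each library. With only 2 residual degrees of freedom a region, the spread came largely from all regions together (common dispersion 0.00321). Positive log2 ratios mean more D. melanogaster reads, and SE is the size of the log2 ratio over the root of F. The difference between kinds of read was fitted on 12 columns. Single-library ratios used a pseudocount of 0.5. Limits on a count of 0 cover counting error only, since reads had no molecular identifiers. The fit was first tested on simulated counts. Alternatives, DESeq2 1.42.0 among them, are given in the closing section.

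The members and lists were chosen with earlier results of these data known. Named regions were, in each direction, the 10 largest called ratios (all 3 libraries on one side, at least 4 reads of each allele in each, 100 in all) and the 5 most-read called regions, together with the 10 highest levels and the 3 uncalled regions with the most reads. The tables pair identifiers with neither genes nor coordinates, so at most 2 identifiers per direction are printed and no sequence is shown.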

Additional observations from a re-analysis of the deposited data

Results flagged for a closer look

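Unassigned reads entered no comparison of the alleles, and in 4 conserved regions they were nearly the only signal, with a mean of at least 20 unassigned and under 1 allele-assigned read per library. The region with the most reads, of 279 bases, 99.28% identity and 2 differing bases, had 688, 652 and 894 unassigned reads in replicates 1, 2 and 3 and no assigned read. The other regions were of 269, 241 and 231 bases, with 126, 152 and 164 reads, 73, 57 and 91 reads, and 49, 44 and 34 reads. Of the 4, only the 241-base region had an assigned read, a single D. melanogaster read in replicate 2.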

How the results depend on the processing

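The count of 100 called conserved regions (55 toward D. melanogaster, 45 toward D. simulans) was 43 (24, 19) with DESeq2, 38 (19, 19) of 78 tested with reads placed on 1 genome only, 26 (16, 10) against a minimum log2 ratio of 0.5 (11.2% of all regions), 22 (12, 10) of 121 tested with the identity limit raised by 0.5 points and 191 (99, 92) of 1028 tested without length limits (18.2% and 18.6% of those tested). Without the replicate block, that is without pairing the alleles of a library, it was 54 (32, 22). TMM and median-ratio scaling each gave 105 (39, 66), with 84 of the 100 called in the same direction. A minimum of 10 reads gave 107 of 627 tested (32.6% of all regions so tested), and one of 50 reads gave 86 of 287 (41%). Leaving out 1 library gave 69 to 78 calls (27.9% of all regions so tested in each case). Of these calls, 35 to 42 were toward D. melanogaster, the lowest without replicate 2, and 30 to 36 toward D. simulans. Leaving out 1 library gave 48 to 59 calls in place of 76 with reads on both genomes, the lowest without replicate 3. For the difference between kinds of read it gave 20 to 22 in place of 25. The median level of 12.2 was 3.34 with assigned reads only and 15.1 with length reduced by the read length. The D. melanogaster share of 46.4% was 50.4% without the 10 regions with the most reads, 48.0% without the dense stretch of identifiers, 47.9% with reads on both genomes and 32.5% with reads on 1 genome. Directions turned for the 312-base region (-0.33 with reads on both genomes), for S53230_SI (561 bases; 0.029 with exact matches), and, with reads on 1 genome, for the 223-base (-0.50), 220-base (0.91) and 341-base (-1.06) regions. The cause was not tested. Fits without single libraries by kind of read, and those without the dense stretch, were chosen after seeing the data.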
